A study of Mus musculus with 24 samples.

Results

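C2C12 myotubes, which are multinucleated muscle fibres formed in the dish from an immortalised mouse myoblast line, were compared with and without electrical stimulation while O2 in the gas phase was held at 1 %. The comparison used 12 of the 24 libraries of the series, namely 6 of stimulated cultures (1 % STIM) and 6 of resting cultures (1 % CTRL), which were chosen by their labels alone. All myotubes were wild type and had been differentiated under 5 % O2. They were labelled as day 5 and, in both groups, as 2 h under 1 % O2. The methods place these 2 h ahead of stimulation and do not say whether resting cultures were kept as long as stimulated ones. The other 12 libraries, the same pair of groups at 5 % O2 (5 % STIM and 5 % CTRL, 6 each, also exposed for 2 h), were used only to show where the response at 1 % O2 differed. Stimulation consisted of repeated short bouts of electrical pulses delivered to the culture wells, after the exposure to the respective O2 level. RNA of stimulated cultures is described as taken directly after stimulation at both O2 levels. Ahead of the exposure, the cultures received new medium equilibrated at 5 % O2. The methods also describe new differentiation medium ahead of stimulation and again when it had ended. They do not say whether resting cultures had these changes, nor the O2 level of this medium. Effects of stimulation, of fresh medium and of its O2 level therefore cannot be told apart. As a model, the cultures were 1 cell line without nerve, vessel or load, and all replicates came from that line.

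Contraction raises cytosolic Ca2+ and the turnover of ATP, and a bout of contraction is followed by a wave of transcription in muscle that starts with immediate early genes and passes to genes of fuel use, stress and growth factor feedback. Lack of O2 stops the prolyl hydroxylases that mark hypoxia-inducible factor (HIF) for destruction, and HIF then raises genes of glucose uptake, glycolysis and vessel growth. NF-κB is held in the cytosol by inhibitor proteins at rest, and once released it raises chemokines, cytokines and, as feedback, its own inhibitors.

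The signal was the read count of a gene divided by the size factor of its library (normalized count), and the 12 libraries at 1 % O2 held 26677978 to 28173745 reads. The myotube identity of the cultures was checked with 12 defining markers, which summed to 470122 to 511942 in 1 % CTRL and 461115 to 511925 in 1 % STIM. Of these 12, 2 were called lower, among them Myog, and 0 higher (10.8 % and 11.5 % of all genes). The 9 markers of undifferentiated myoblasts or reserve cells summed to 15789.5 to 16301.7 in 1 % CTRL and 13944.2 to 15265.9 in 1 % STIM. Of these 9, 1 was called higher and 3 lower (11.5 % and 10.8 % of all genes). The largest part of their sum was Cdh15, with means of 9757 in 1 % CTRL and 9175 in 1 % STIM, so the sum says little about the others. Markers of macrophages, endothelial cells, adipocytes and neurons summed to at most 86.6, 25.7, 1.94 and 56.2 in any library at 1 % O2, and 1 of 7, 1 of 5, 3 of 5 and 2 of 4 of them were at 0 in every library at 1 % O2. Of these markers, 3 of 7, 0 of 5, 0 of 5 and 1 of 4 passed the count filter and were tested, and none of those tested was called. The others were too low to be tested, so no call was possible for them. In bulk RNA, fewer cells of a type and less RNA per cell cannot be told apart.

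The library 1 % CTRL replicate 1 stood apart with gene length. Over 10743 genes with a mean of at least 100, its log2 deviation from the other 1 % CTRL libraries rose by 0.116 per doubling of exon length, whereas the slopes of the other 5 lay between -0.049 and -0.015 and those of 1 % STIM between -0.034 and 0.060. With genes divided by exon length into 5 classes of equal size, in the shortest class (177 to 2628 bases of exon) it lay at -0.117 against the others, and in the longest at 0.128. The median log2 fold change of 1 % STIM against 1 % CTRL moved from -0.022 in the shortest class to 0.022 in the longest with all libraries, from -0.051 to 0.041 without this library, and lay at -0.006 and -0.007 after each library's trend with length had been removed. The trend with length was therefore larger without the library than with it, and the library 1 % STIM replicate 3, with the slope of 0.060, was the steepest of the stimulated group. Results below are given for all 12 libraries, and the calls of named genes and the counts of lists at 1 % O2 without 1 % CTRL replicate 1 follow where they differed.

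**Figure D1:**
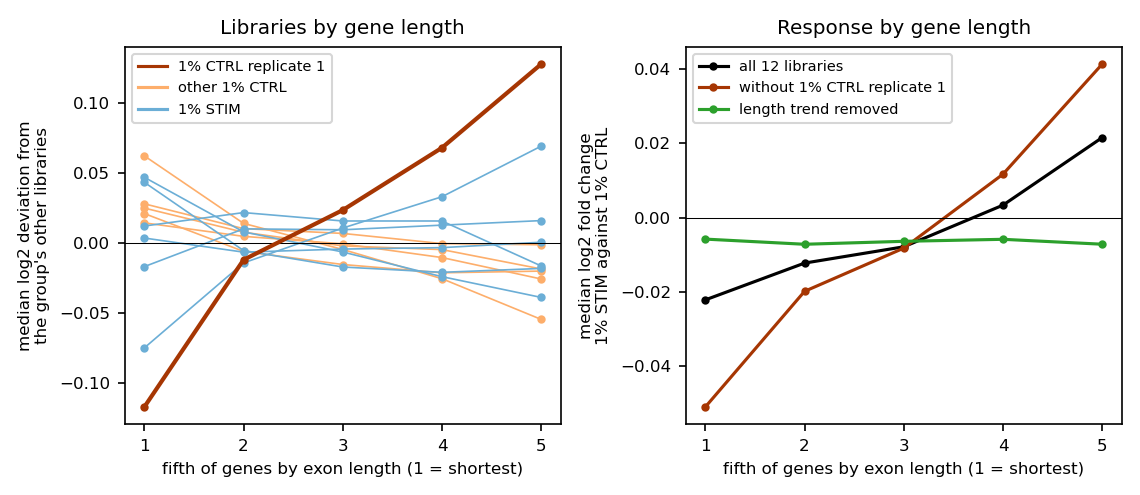
Left: median log2 deviation of each library at 1 % O2 from the other libraries of its group, in 5 classes of genes ranked by exon length (1 is the shortest). Right: median log2 fold change of 1 % STIM against 1 % CTRL in the same classes, with all 12 libraries, without 1 % CTRL replicate 1 and with the length trend removed. The line of 1 % CTRL replicate 1 climbs from -0.117 to 0.128.

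Stimulation at 1 % O2 changed 3245 of 14541 genes tested (22.3 %), 1668 higher and 1577 lower, by the limma test over all genes with Benjamini-Hochberg adjusted p under 0.05. Most changes were small. The median size among called genes was a log2 fold change of 0.23, and 85 genes rose and 26 fell by at least 1 on the log2 scale. For 1628 genes (11.2 % of those tested), every 1 % STIM library lay on the same side of all 1 % CTRL libraries. Without 1 % CTRL replicate 1, 3748 genes were called (25.8 %), 2047 higher and 1701 lower, and 3014 of the 3245 calls were kept with their direction. Scaling every library to the same total in place of the size factors made the split 2142 higher to 1293 lower, so that 62.4 % of calls were higher against 51.4 %.

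Among the genes that rose most, the chemokines led, and next to them stood genes of kinase signalling, cell death and fuel choice. Pim1, a serine/threonine kinase induced by cytokines and growth signals, lay at a median of 169 (range 134 to 182) in 1 % CTRL and at a median of 927 (range 738 to 1035) in 1 % STIM, a log2 fold change of 2.51 ± 0.08 (SE; adjusted p = 6.5e-22). Angptl4, a secreted inhibitor of lipoprotein lipase, rose from a median of 1673 (range 1391 to 1739) to a median of 5686 (range 5398 to 5867), by 1.80 ± 0.04 (adjusted p = 2.1e-27). Every stimulated library lay above every resting one for both genes, which the rule for the genes that rose most required. The linker histone gene Hist1h1d rose by 2.40, the pro-apoptotic BH3-only gene Bmf by 1.85, the PI3 kinase inhibitor Pik3ip1 by 1.59, the iron exporter Slc40a1 by 1.57 and Pdk4, which closes the pyruvate dehydrogenase complex, by 1.56. For Pim1, 14.5 % of the exon sequence overlaps a gene on the other strand, and the quantification at default settings did not use the strand, so reads of the pair cannot be told apart. The same holds for Adora1, Bnip3, Spry1, Sqstm1, Ccne2, E2f8 and Hspa1a below, at 11.2 % to 24.4 % of their exon sequence.

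Among the genes that fell most, Depp1, a FoxO target, lay at a median of 413 (range 323 to 435) at rest and at a median of 153 (range 134 to 171) after stimulation, and its log2 fold change was -1.40 ± 0.09 (adjusted p = 1.5e-14). Aire, known as the regulator of self-antigen expression in the thymus, dropped from a median of 198 (range 169 to 227) to a median of 74.9 (range 64.5 to 94.3). Aire was low at 5 % O2 in both groups, at a median of 10.2 (range 8.14 to 15.5) and a median of 5.11 (range 3.03 to 8.11), and it is named here because the rule on size selected it. Grhl3, an epithelial transcription factor, fell by 1.32, the ubiquitin ligase gene Rnf145 fell by 1.31, the adenosine receptor gene Adora1 fell by 1.25, and Triobp, which encodes an actin-binding protein, fell by 1.15 on the log2 scale. None of the libraries of the groups overlapped for these 6 genes.

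**Figure D2:**
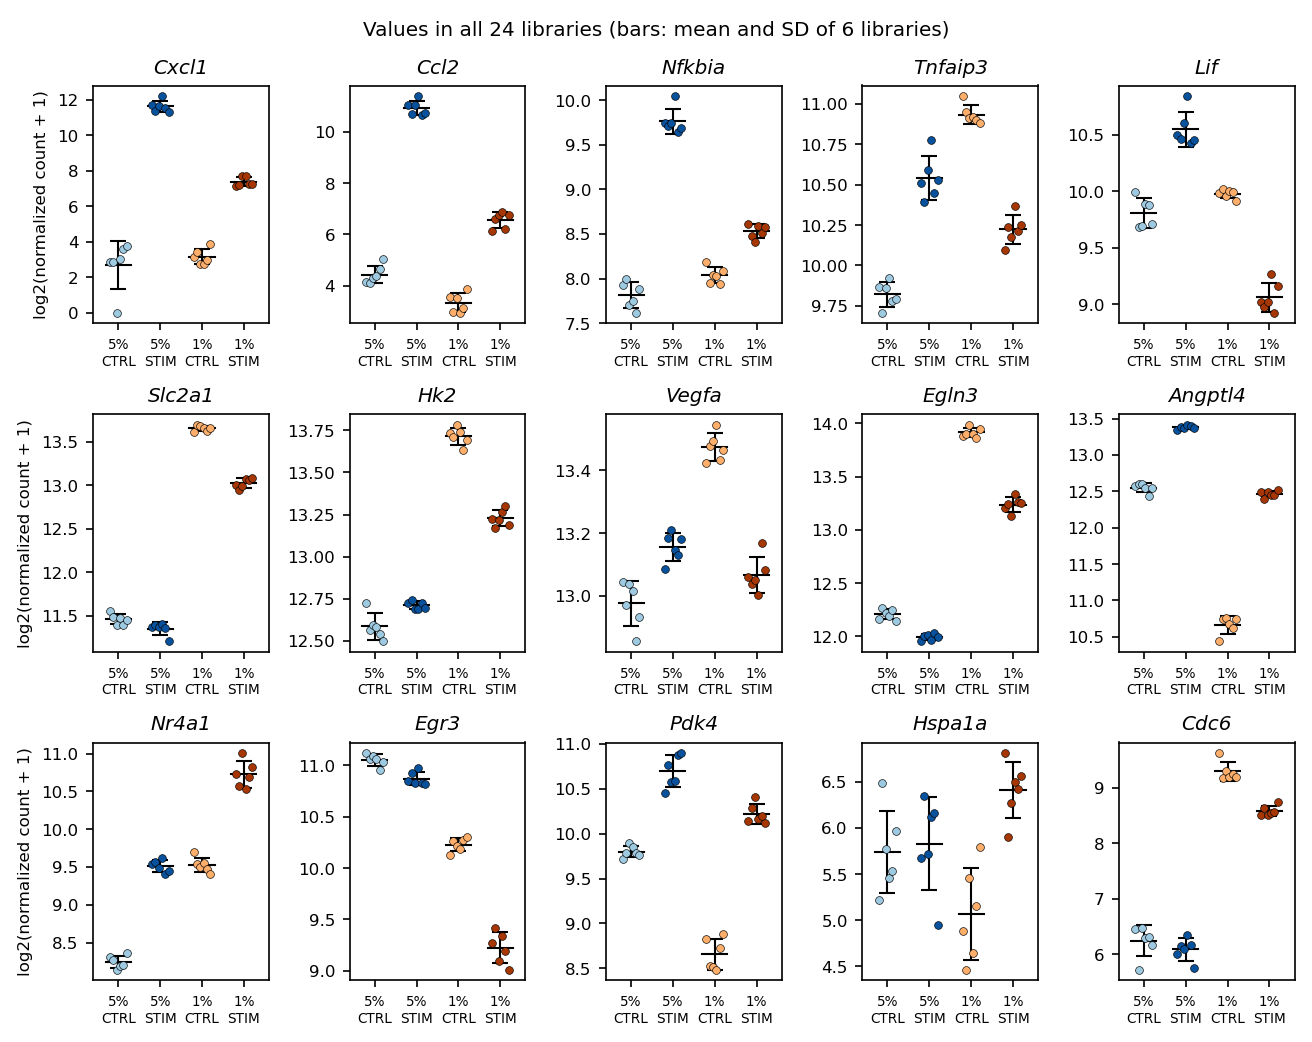
log2(normalized count + 1) of 15 named genes in each of the 24 libraries, by group on the horizontal axis. Points are libraries, and bars give mean and SD of 6 libraries. Cxcl1 sits between 138 and 209 normalized counts in 1 % STIM and between 2526 and 4673 in 5 % STIM, and Slc2a1 sits lower in every 1 % STIM library than in any 1 % CTRL library.

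Chemokine genes gave the largest responses, and these were far smaller than at 5 % O2. Cxcl1, a chemokine that draws neutrophils, lay at a median of 7.3 (range 5.71 to 13.6) in 1 % CTRL and at a median of 151 (range 138 to 209) in 1 % STIM, a log2 fold change of 4.23 ± 0.43 (adjusted p = 1.3e-07). It went from a median of 6.69 (range 0 to 12.6) to a median of 3112 (range 2526 to 4673) at 5 % O2, a log2 fold change of 8.95 ± 0.43. The difference between both responses was -4.72 ± 0.61 (adjusted p = 1.7e-05 in the interaction of O2 and stimulation). Resting levels overlapped between the O2 levels, and no stimulated library at 1 % O2 came near one at 5 % O2.

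Cxcl5, another neutrophil chemokine, rose from a median of 8.2 (range 5.75 to 13.3) to a median of 137 (range 107 to 160.1) at 1 % O2 and from a median of 7.69 (range 4.09 to 9.43) to a median of 985 (range 802 to 1343) at 5 % O2. Ccl2, which draws monocytes, rose from a median of 9.08 (range 6.71 to 13.6) to a median of 100.5 (range 69.2 to 116), and at 5 % O2 from a median of 19.1 (range 16.3 to 31.4) to a median of 1894 (range 1632 to 2680.2). Ccl7, its neighbour in the monocyte chemokine cluster, rose by 2.31 ± 0.14 at 1 % O2 and by 4.63 ± 0.14 at 5 % O2. The differences between the responses were -3.28, -3.28 and -2.32, all called. Il6, a cytokine that contracting muscle releases, was low but without overlap, at a median of 3.86 (range 1.92 to 6.71) and a median of 13.5 (range 7.8 to 21.2), and its response of 1.65 ± 0.22 was set beside 2.07 ± 0.22 at 5 % O2 with no called difference (adjusted p = 0.42).

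Several feedback genes of this pathway fell at 1 % O2. Tnfaip3 (A20), which switches off signalling to NF-κB, lay at a median of 1928 (range 1884 to 2113) in 1 % CTRL and at a median of 1196 (range 1091 to 1322) in 1 % STIM, and its log2 fold change was -0.71 ± 0.05 (adjusted p = 2.3e-13). Under 5 % O2 it rose from a median of 906 (range 836 to 968) to a median of 1468 (range 1342 to 1754), so that the responses had opposite signs and their difference was -1.43 ± 0.07 (adjusted p = 3.1e-16). Lif, an interleukin 6 family cytokine made by muscle, had the same pattern, falling from a median of 1015 (range 962 to 1036) to a median of 519.6 (range 486 to 617) at 1 % O2 and rising from a median of 890.2 (range 824 to 1022) to a median of 1428 (range 1377 to 1833) at 5 % O2. Socs3, which brakes cytokine receptors, fell by 0.84 on the log2 scale at 1 % O2. Nfkbia, the inhibitor IκBα and a direct target of NF-κB, rose from a median of 261 (range 244 to 290.2) to a median of 373 (range 338 to 392), and at 5 % O2 from a median of 225 (range 195 to 254) to a median of 846 (range 800.5 to 1056). Bcl3, an inhibitor-like coactivator, was not called at 1 % O2, at a median of 38.2 (range 25.6 to 43.2) and a median of 35.6 (range 28.3 to 44.8), and rose by 1.53 at 5 % O2. Ptgs2, the inducible cyclooxygenase, rose by 0.50 and 0.56 at 1 % and 5 % O2, with no called difference.

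Of the 46 tested genes on a list of NF-κB targets and inflammation, 16 rose and 8 fell at 1 % O2, where 11.5 % and 10.8 % of all genes did. This list and those below were written with earlier results of these data known. Their counts beside the shares of all genes are therefore descriptions. The median log2 fold change of the list was 0.13, beside -0.003 over all genes tested. At 5 % O2, 34 rose and 4 fell (9.44 % and 12 % of all genes), with a median of 0.72. In the interaction, 27 of the 46 were called lower at 1 % O2 and 0 higher (5.43 % and 5.88 % of all genes). By role, 5 of 9 chemokines rose and 1 fell, 1 of 12 cytokines rose and 3 fell, 3 of 5 NF-κB subunits rose, and among 10 feedback inhibitors 2 rose and 3 fell. Among the 10 feedback inhibitors, 9 were called lower in the interaction. Without 1 % CTRL replicate 1, 15 rose and 8 fell, and 2 of the 12 cytokines rose.

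The bases before the start site of Cxcl1 and Tnfaip3 are shown because these members of the same pathway moved in opposite directions at 1 % O2 and in the same direction at 5 % O2. They are 250 bases each from RefSeq on GRCm38.p6, with capitals for matches on either strand to the consensus of an NF-κB site.
Cxcl1 (chr5:90890995-90891244, plus strand): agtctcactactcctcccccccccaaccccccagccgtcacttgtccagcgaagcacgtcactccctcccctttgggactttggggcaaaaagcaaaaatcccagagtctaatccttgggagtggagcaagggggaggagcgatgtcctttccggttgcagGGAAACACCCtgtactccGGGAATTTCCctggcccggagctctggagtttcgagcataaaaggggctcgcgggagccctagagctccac
Tnfaip3 (chr10:19015411-19015660, minus strand): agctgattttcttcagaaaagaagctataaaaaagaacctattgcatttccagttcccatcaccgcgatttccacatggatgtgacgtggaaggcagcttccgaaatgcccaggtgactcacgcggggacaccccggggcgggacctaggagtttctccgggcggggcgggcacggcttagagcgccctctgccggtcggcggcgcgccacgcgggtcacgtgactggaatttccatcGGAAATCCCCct
The window of Cxcl1 held 2 matches, the first bases of which lay at -89 and -71 from the start, and that of Tnfaip3 held 1, at -12. Of the 34 genes of the list with a promoter in the table, 10 (29.4 %) held at least 1 match, against 1.65 % of all 27025 genes with a promoter and 1.88 % of the 10519 among them that were tested. A match is a run of letters and was not tested as a binding site.

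Many HIF targets that were higher at 1 % than at 5 % O2 at rest fell with stimulation at 1 % O2. Slc2a1, the glucose transporter GLUT1, lay at a median of 12928 (range 12550.4 to 13238) in 1 % CTRL and at a median of 8369 (range 7872 to 8683) in 1 % STIM, a log2 fold change of -0.63 ± 0.03 (adjusted p = 9.4e-17). Its levels at 5 % O2 were a median of 2824 (range 2684 to 2996) at rest and a median of 2646 (range 2364 to 2712) after stimulation. Stimulated cultures at 1 % O2 therefore remained above every culture at 5 % O2. Egln3, the oxygen-sensing prolyl hydroxylase PHD3, fell from a median of 15298 (range 14923 to 16217) to a median of 9717 (range 8951 to 10356) at 1 % O2, with a median of 4733 (range 4534 to 4927) and a median of 4087 (range 3976 to 4180.4) at 5 % O2. Vegfa, the main growth factor of vessels, fell from a median of 11361 (range 10988 to 11948) to a median of 8513 (range 8203 to 9210.1) at 1 % O2 and rose from a median of 8152 (range 7415 to 8439.7) to a median of 9176 (range 8701 to 9467) at 5 % O2. Its response differed from that at 5 % O2, with a difference of -0.59 ± 0.05 (adjusted p = 1.8e-11), and the level after stimulation overlapped between 1 % and 5 % O2.

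Adm, which encodes the vasodilator adrenomedullin, fell from a median of 1771 (range 1699 to 1830.4) to a median of 1083 (range 959.6 to 1152), and Apln, which encodes the vasoactive peptide apelin and is on the list of angiogenic ligands, fell from a median of 1541 (range 1451 to 1651) to a median of 689.7 (range 588 to 819). Both were lower at 5 % O2, where Adm went from a median of 116 (range 93.2 to 131) to a median of 83.2 (range 74.7 to 108) and Apln from a median of 138 (range 116 to 154) to a median of 77.2 (range 67.9 to 97.1). Bnip3, a mitophagy receptor, fell by 0.43 ± 0.06 on the log2 scale. Hif1a itself was not called, at a median of 5069 (range 4816 to 5792) and a median of 5033 (range 4624 to 5173), a log2 fold change of -0.05 ± 0.04 (adjusted p = 0.41). Ddit4, a brake on mTOR, was not called with all libraries (-0.19 ± 0.14, adjusted p = 0.38) and was called without 1 % CTRL replicate 1 (-0.32, adjusted p = 0.034), which held the lowest resting value of 844 against 1413 or more in the others. Ddit4 rose by 0.82 at 5 % O2, and the difference between the responses was -1.01 ± 0.20 (adjusted p = 0.0015).

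A few HIF targets went the other way. Angptl4 rose at both O2 levels, and its response was larger at 1 % than at 5 % O2 by 0.97 ± 0.05 (adjusted p = 1.1e-14). Its resting level was lower at 1 % than at 5 % O2, at a median of 1673 (range 1391 to 1739) against a median of 6042 (range 5525 to 6242), and stimulation at 1 % O2 brought it to the range given above, which overlapped with resting cultures at 5 % O2. Sesn2, a stress-induced inhibitor of mTORC1, rose by 0.77 and 0.87 at 1 % and 5 % O2, and Hmox1, haem oxygenase 1, by 0.26 and 0.89, for which the difference of -0.63 was called.

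On the list of HIF targets, 46 of 75 tested genes fell at 1 % O2 and 5 rose (10.8 % and 11.5 % of all genes), with a median log2 fold change of -0.24. Under 5 % O2, 21 rose and 20 fell (9.44 % and 12 % of all genes), with a median of -0.03. In the interaction 39 were called lower and 2 higher (5.43 % and 5.88 % of all genes). By role, 7 of 9 angiogenic or vasoactive factors, 7 of 9 genes of mitochondrial braking or mitophagy, 7 of 8 collagen hydroxylase or matrix genes, 2 of 3 glucose transporters and 4 of 8 oxygen-sensing genes fell. Without 1 % CTRL replicate 1, 47 fell and 6 rose, among them 6 angiogenic or vasoactive factors and 5 oxygen-sensing genes that fell. In resting cultures, 52 of the 75 were higher at 1 % than at 5 % O2 and 14 lower (29.4 % and 30.5 % of all genes, 59.9 % in either direction). In stimulated cultures, 48 were higher and 18 lower (29 % and 28.4 % of all genes, 57.4 % in either direction), with medians of 0.57 at rest and 0.21 after stimulation. For 36 of the 46 that fell, the mean of 1 % STIM was still at or above that of 5 % CTRL. Each of these comparisons shares libraries with the comparison of 1 % STIM and 1 % CTRL, and they are given side by side as levels only.

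Most transcripts of glycolysis, the pathway that splits glucose to pyruvate, fell after stimulation at 1 % O2. Of 23 enzymes and regulators tested, 15 fell and 0 rose by the limma test (10.8 % and 11.5 % of all genes), with a median of -0.17. Leaving out 1 % CTRL replicate 1 gave 16 that fell. There were 4 that fell and 1 that rose at 5 % O2 (12 % and 9.44 % of all genes). The interaction was called lower for 9 (5.43 % of all genes). The number at an unadjusted p under 0.05 at 1 % O2 was 17. Hk2, the inducible hexokinase, lay at a median of 13507 (range 12708 to 14094) in 1 % CTRL and at a median of 9549 (range 9232 to 10075) in 1 % STIM (-0.49 ± 0.03, adjusted p = 1.8e-14), while at 5 % O2 it rose from a median of 6099 (range 5789 to 6783) to a median of 6697 (range 6599 to 6862). Hk1, the constitutive hexokinase, fell by 0.50, the phosphofructokinase subunit gene Pfkl fell by 0.50, and the enolase gene Eno2 fell by 0.46 on the log2 scale, each with a called difference from 5 % O2. Pfkfb3, whose product makes the activator of phosphofructokinase, fell at both O2 levels, with log2 fold changes of -0.36 and -0.50, with no called difference (adjusted p = 0.18).

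Start regions of Hk2 and Bnip3 are shown because both genes fell at 1 % O2 and stand for the glycolytic and mitophagy arms of the HIF response. Capitals mark matches on either strand to ACGTG, the core letters of a hypoxia response element, in 250 bases before the start (RefSeq, GRCm38.p6).
Hk2 (chr6:82774455-82774704, minus strand): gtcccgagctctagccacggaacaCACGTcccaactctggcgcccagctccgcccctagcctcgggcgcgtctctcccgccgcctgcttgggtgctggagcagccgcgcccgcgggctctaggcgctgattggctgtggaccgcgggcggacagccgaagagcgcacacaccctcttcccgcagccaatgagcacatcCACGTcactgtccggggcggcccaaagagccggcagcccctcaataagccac
Bnip3 (chr7:138909507-138909756, minus strand): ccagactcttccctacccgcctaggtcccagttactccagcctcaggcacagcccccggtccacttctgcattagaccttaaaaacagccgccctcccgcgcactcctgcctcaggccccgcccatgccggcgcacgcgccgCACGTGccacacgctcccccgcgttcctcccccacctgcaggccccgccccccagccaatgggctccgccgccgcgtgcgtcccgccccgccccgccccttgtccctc
Hk2 held 2 separate matches, with first bases at -226 and -52. The 2 matches of Bnip3 lie on opposite strands and overlap in 1 run, which is why they appear as a single stretch of capitals. Of 53 HIF targets with a promoter in the table, 31 (58.5 %) held the letters, against 18.5 % of all genes with a promoter and 24.9 % of those that were tested. Among all genes called at 1 % O2, the share was near that of the genes tested, at 27.8 % in those that fell and 26.1 % in those that rose. The core is short and common, and its presence was not tested as a site.

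Immediate early genes moved in both directions, within some families as well as between them. Of 10 AP-1 subunits, 3 rose and 2 fell (3 and 3 without 1 % CTRL replicate 1). Of 6 Kruppel-like factors, 2 rose and 3 fell. The shares of all genes were 11.5 % and 10.8 %. The NR4A nuclear receptors, which Ca2+ and cAMP signals induce in muscle, all rose at 1 % O2. Nr4a1 went from a median of 734 (range 679.5 to 828) to a median of 1676 (range 1474 to 2052), a log2 fold change of 1.20 ± 0.06 (adjusted p = 5.0e-17), and from a median of 300.2 (range 282 to 327) to a median of 729 (range 679 to 786) at 5 % O2, with no called difference (adjusted p = 0.65). Nr4a2 rose by 0.64 and Nr4a3 by 0.54, and for Nr4a2 the response was larger than at 5 % O2 by 0.51. The EGR family behaved otherwise. Egr3 fell from a median of 1208 (range 1118 to 1266) to a median of 601 (range 516 to 682) (-1.01 ± 0.05, adjusted p = 1.3e-17), more than at 5 % O2, where it went from a median of 2136 (range 1990.0 to 2221) to a median of 1827 (range 1810.0 to 2013). Arc, an activity-regulated gene, fell from a median of 63.4 (range 55.1 to 83.7) to a median of 34.9 (range 21.9 to 47.7). Egr1 was not called, with a median of 1382 (range 1254 to 1443) at rest and a median of 1423 (range 1070.3 to 1625) after stimulation.

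Among the subunits of AP-1, Jun rose from a median of 1767 (range 1317 to 1874) to a median of 2544 (range 2374 to 2936) and Atf3, a stress-induced member, from a median of 82.3 (range 64.4 to 111) to a median of 155 (range 124 to 186). Fos was not called, at a median of 91.7 (range 80.6 to 111) and a median of 86.2 (range 75 to 116). Junb lay at a median of 1415 (range 724 to 1726) and a median of 962 (range 659 to 1098) and missed the threshold (-0.57 ± 0.21, adjusted p = 0.057), but it was called without 1 % CTRL replicate 1 (-0.74, adjusted p = 0.0046) or without 1 % STIM replicate 4 (-0.63, adjusted p = 0.048). With all libraries it was also called by edgeR (adjusted p = 0.042), DESeq2 (0.018), limma with array weights (0.0081) and limma with the length trend removed (0.045). The other alternatives with all libraries left it not called. Btg2, an antiproliferative early gene, rose by 0.98 at 1 % O2 and by 0.27 at 5 % O2, a called difference. Myc rose by 0.50 and 0.41, and Hes1, a target of Notch, fell with log2 fold changes of -0.92 and -0.71. Of the 43 early regulators tested, 14 rose and 15 fell at 1 % O2 (11.5 % and 10.8 % of all genes), with a median of -0.01. Leaving out 1 % CTRL replicate 1 gave 17 that fell. The numbers at 5 % O2 were 16 higher and 7 lower (9.44 % and 12 % of all genes).

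Feedback genes of the MAP kinase pathway, which growth factor signalling induces to limit itself, also moved in both directions. Of 22 tested, 9 rose and 9 fell (11.5 % and 10.8 % of all genes), or 9 and 8 without 1 % CTRL replicate 1, beside 5 and 6 at 5 % O2 (9.44 % and 12 %). Dusp1, a phosphatase of MAP kinases, rose from a median of 456 (range 421 to 494) to a median of 629 (range 612 to 698), and it lay at a median of 346 (range 322 to 375) and a median of 355 (range 298 to 381) at 5 % O2, where it was not called. Spry1, an inhibitor of receptor tyrosine kinase signalling, fell from a median of 321 (range 249 to 363) to a median of 167 (range 149 to 184). Errfi1, which inhibits the EGF receptor, fell by 0.54, and the ligand Hbegf of the same receptor fell by 0.53, whereas the ligand gene Nrg1 rose by 0.65. Sprouty and Spred genes fell in 4 of 6 cases, or 3 without 1 % CTRL replicate 1, and rose in 1.

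Of 14 genes that set the choice between glucose and fat, 9 rose at 1 % O2 and 1 fell (11.5 % and 10.8 % of all genes), and 4 were not called. The numbers at 5 % O2 were 7 higher and 0 lower by limma (9.44 % and 12 % of all genes). Pdk4 lay at a median of 395 (range 358 to 469) in 1 % CTRL and at a median of 1160.3 (range 1108 to 1355) in 1 % STIM (1.56 ± 0.08, adjusted p = 1.3e-14), and its response was larger than at 5 % O2 by 0.66 ± 0.11. Cpt1a, the carnitine palmitoyltransferase that admits fatty acids to mitochondria, rose from a median of 934 (range 883 to 1015) to a median of 1950.0 (range 1822 to 2053), and by 0.48 more than at 5 % O2. Both genes had lower resting levels at 1 % than at 5 % O2, and Pdk4 and Cpt1a after stimulation at 1 % O2 stayed below the stimulated libraries at 5 % O2. Ucp3, a mitochondrial carrier of skeletal muscle, rose by 1.20 ± 0.13, and Ppargc1a, the coactivator PGC-1α of mitochondrial biogenesis, rose from a median of 34.6 (range 29.1 to 43.3) to a median of 63 (range 46.2 to 89.5) (0.79 ± 0.19, adjusted p = 0.0025). At 5 % O2 Ppargc1a was not called, at a median of 25.6 (range 12.6 to 31.4) and a median of 24.7 (range 20.3 to 32.7), yet the difference between the responses was not called either (0.61 ± 0.28, adjusted p = 0.16). On the list of mitochondrial biogenesis and exercise metabolism, of which these 14 genes of fuel selection are a part, 11 of 25 rose and 3 fell (11.5 % and 10.8 % of all genes), beside 9 and 2 at 5 % O2 (9.44 % and 12 %). The numbers that fell were near the share of all genes at both O2 levels.

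Targets of FoxO, the factors that growth factor signalling keeps out of the nucleus, rose for the most part. Of 20 genes of FoxO and atrophy, 12 rose and 5 fell (11.5 % and 10.8 % of all genes), with a median of 0.37, and 4 fell without 1 % CTRL replicate 1. Under 5 % O2, 14 rose (9.44 % of all genes) and 2 fell, which is near the 12 % of all genes. Trp53inp1, a gene of stress and autophagy, rose from a median of 853 (range 836 to 976) to a median of 2409 (range 2264 to 2695) (1.48 ± 0.05, adjusted p = 1.7e-22). Trim63, the muscle ubiquitin ligase MuRF1, rose from a median of 1194 (range 1188 to 1220.1) to a median of 2179.8 (range 2001 to 2321), and by nearly as much at 5 % O2 (0.85 and 0.81). Sesn1 rose by 0.90 and 0.55, a called difference. Against the majority, Depp1 fell at both O2 levels, with log2 fold changes of -1.40 and -1.98, and Foxo1 itself fell from a median of 1676 (range 1622 to 1865) to a median of 1388 (range 1341 to 1443) at 1 % O2 and rose by 0.14 at 5 % O2.

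The unfolded protein and integrated stress responses, which adjust translation and amino acid supply under stress, had more genes that rose than fell at both O2 levels. At 1 % O2, 15 of 28 genes rose and 1 fell (11.5 % and 10.8 % of all genes), with a median of 0.16, or 16 and 2 without 1 % CTRL replicate 1. Under 5 % O2, 19 rose and 0 fell by limma (9.44 % and 12 %). Of the 9 chaperones of the list, 3 rose and 1 fell at 1 % O2, with a median of -0.06, and 2 rose at 5 % O2. Its 4 feedback genes all rose at both O2 levels. Chac1, which degrades glutathione, went from a median of 562 (range 429 to 597) to a median of 1204 (range 1028 to 1351), and Ddit3, the factor CHOP, from a median of 539 (range 531 to 543) to a median of 1109 (range 833 to 1293). Trib3, a pseudokinase of the same response, rose by 1.12 ± 0.07 at 1 % O2 and by 1.74 ± 0.07 at 5 % O2 (adjusted p = 3.1e-05 for the difference). Herpud1, of the degradation machinery of the endoplasmic reticulum, rose by 0.60 and 0.64. Of 26 antioxidant genes of NRF2, 9 rose and 0 fell by limma (11.5 % and 10.8 % of all genes, with 11 of the 26 at an unadjusted p under 0.05), and 1 fell without 1 % CTRL replicate 1. There were 12 that rose at 5 % O2 (9.44 % of all genes). Gclc, the catalytic subunit of glutathione synthesis, rose from a median of 1136 (range 1094 to 1198) to a median of 1521 (range 1425 to 1559), its partner Gclm by 0.29 and the autophagy receptor gene Sqstm1 by 0.47, and Gclc and Gclm rose more than at 5 % O2.

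Heat shock chaperones, which refold damaged proteins, had more genes that rose than fell at 1 % O2 and more that fell than rose at 5 % O2. Of 22 tested, 7 rose and 1 fell at 1 % O2 (11.5 % and 10.8 % of all genes) and 14 were not called. Leaving out 1 % CTRL replicate 1 gave 9 that rose and 2 that fell. The numbers at 5 % O2 were 1 higher and 8 lower (9.44 % and 12 % of all genes). The interaction was called higher for 10 and lower for 0 (5.88 % and 5.43 % of all genes), and for 12 it was not called. Hspa1a, the inducible HSP70, lay at a median of 31.6 (range 21.1 to 54.3) in 1 % CTRL and at a median of 87.1 (range 58.8 to 111) in 1 % STIM (1.35 ± 0.24, adjusted p = 1.5e-04). Its libraries overlapped at 5 % O2, at a median of 49.4 (range 36.3 to 88.5) and a median of 60 (range 29.9 to 80.1), and the responses differed by 1.26 ± 0.34 (adjusted p = 0.017). Reads of Hspa1a could be split with its near-identical neighbour Hspa1b, so the level of either gene alone is uncertain. The HSP110 family genes Hspa4l and Hsph1 gave firmer values, Hspa4l rising from a median of 5591 (range 5370.1 to 6459) to a median of 7178 (range 7006 to 7597) and Hsph1 from a median of 5447 (range 5236 to 5613) to a median of 6505 (range 5814 to 6833), and their responses exceeded those at 5 % O2 by 0.26 and 0.38.

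Sterol genes, which the factor SREBP2 raises when membranes run low in cholesterol, rose in smaller number at 1 % O2 than at 5 % O2. Of 26 genes of cholesterol synthesis and sterol sensing, 12 rose and 5 fell at 1 % O2 (11.5 % and 10.8 % of all genes), or 14 and 5 without 1 % CTRL replicate 1. There were 19 that rose and 2 that fell at 5 % O2 (9.44 % and 12 % of all genes). The interaction was called lower for 13 and higher for 0 (5.43 % and 5.88 % of all genes). Insig1, the sterol-regulated anchor of the pathway, rose from a median of 1775 (range 1659.7 to 1829.8) to a median of 2446 (range 2243 to 2646) at 1 % O2 and from a median of 1908 (range 1769.7 to 1966) to a median of 3430.4 (range 3221 to 3523) at 5 % O2.

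Most genes of DNA replication fell with stimulation at 1 % O2. In resting cultures 27 of the 29 tested genes of S phase were higher at 1 % than at 5 % O2 (29.4 % of all genes), with a median of 1.10. In stimulated cultures 26 were (29 % of all genes), with a median of 0.87. Both comparisons share libraries with that of 1 % STIM and 1 % CTRL and are given as levels only. Of these 29 genes, 24 fell and 1 rose at 1 % O2 (10.8 % and 11.5 % of all genes), with a median of -0.29. There were 2 that fell and 0 that rose at 5 % O2 by limma (12 % and 9.44 % of all genes, with 3 of the 29 at an unadjusted p under 0.05). The interaction was called lower for 8 and higher for 1 (5.43 % and 5.88 % of all genes). It was called lower for 13 without 1 % CTRL replicate 4 and for 14 without 1 % STIM replicate 6. Cdc6, which loads the replicative helicase, lay at a median of 599.8 (range 580.4 to 788) in 1 % CTRL and at a median of 375 (range 363 to 428) in 1 % STIM (-0.71 ± 0.10, adjusted p = 1.9e-06), and at a median of 78.2 (range 51.9 to 88) and a median of 68.8 (range 52.6 to 80.8) at 5 % O2. Ccne2, cyclin E2, fell by 0.69 ± 0.09, Uhrf1, which maintains DNA methylation, fell by 0.54 ± 0.09, and Mcm5, a subunit of the helicase, fell by 0.42 ± 0.09, with overlap between the groups. The library 1 % CTRL replicate 1 held the highest value of its group for Cdc6, Uhrf1 and Mcm5, at 788, 2579.9 and 1967. Without it, 20 of the 29 fell and 1 rose, and the log2 fold changes of these 3 genes were -0.65, -0.48 and -0.36. E2f8, a repressor of E2F targets, rose by 0.15 ± 0.05, a call lost without 1 % CTRL replicate 2 or 6 or 1 % STIM replicate 1, 3 or 6 (adjusted p = 0.0505 to 0.0696). Of 22 genes of G2/M, 1 was called beside 22.3 % of all genes, the kinesin gene Cenpe (0.31 ± 0.09), and 4 rose without 1 % CTRL replicate 1, 3 without 1 % STIM replicate 1, and 2 without 1 % CTRL replicate 5 or 1 % STIM replicate 4.

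The start region of Mcm5 is shown as a member of the replication list whose window held the letters TTTNGCGC of an E2F site. Capitals mark the matches on either strand (250 bases before the start, RefSeq, GRCm38.p6).
Mcm5 (chr8:75109259-75109508, plus strand): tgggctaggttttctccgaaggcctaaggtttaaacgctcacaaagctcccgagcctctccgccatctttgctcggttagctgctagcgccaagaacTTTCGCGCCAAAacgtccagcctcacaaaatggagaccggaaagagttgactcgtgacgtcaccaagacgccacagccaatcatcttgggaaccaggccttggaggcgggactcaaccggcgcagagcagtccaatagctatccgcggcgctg
Its 2 matches, with first bases at -153 and -149, overlap on opposite strands. Of 23 replication genes with a promoter in the table, 5 (21.7 %) held the letters, against 1.31 % of all genes with a promoter and 2.31 % of those that were tested. Among genes called at 1 % O2 the share was 2.88 % of those that fell and 1.99 % of those that rose, on either side of the share of genes tested.

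Genes of the myotube were called about as often as all genes, and of 6 myogenic regulators and fusion genes 3 fell (4 without 1 % CTRL replicate 1). Myog, the myogenic factor of fusing cells, fell from a median of 19609 (range 17829 to 20251) to a median of 12403 (range 11444 to 13362) (-0.64 ± 0.04, adjusted p = 9.0e-13) and by nearly as much at 5 % O2 (-0.53 ± 0.04). Myod1 fell from a median of 2051 (range 1491 to 2226) to a median of 1316 (range 1066 to 1531). The adult fast myosin gene Myh4 fell by 0.24, and the embryonic myosin gene Myh3 was not called, at a median of 105181 (range 100251 to 110899) and a median of 108256 (range 97210.5 to 117315). Of 41 myotube genes tested, 7 fell and 1 rose, beside 22.3 % of all genes in either direction. Leaving out 1 % CTRL replicate 1 gave 11 that fell and 2 that rose, beside 25.8 % of all genes. Without 1 % CTRL replicate 3 or 4 or 1 % STIM replicate 4, 4 fell and 1 rose. Of 14 genes of myoblasts and reserve cells, 8 fell and 2 rose (10.8 % and 11.5 % of all genes), and 9 fell without 1 % CTRL replicate 1. The numbers at 5 % O2 were 7 lower and 1 higher (12 % and 9.44 % of all genes), and the number that rose was near the share of all genes. Id2, an inhibitor of differentiation, fell from a median of 613 (range 598 to 728) to a median of 267 (range 248 to 295), a difference from the response at 5 % O2 of -0.37.

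Targets of YAP and of serum response factor, which follow tension on the cytoskeleton, fell more often than they rose at both O2 levels. At 1 % O2, 9 of 17 fell and 0 rose by limma (10.8 % and 11.5 % of all genes, with 14 of the 17 at an unadjusted p under 0.05), and 10 fell without 1 % CTRL replicate 1. There were 13 that fell and 0 that rose at 5 % O2 (12 % and 9.44 % of all genes). Amotl2, a junction protein and YAP target, fell from a median of 5675 (range 5109.7 to 5914) to a median of 3101 (range 2872 to 3653), a difference from the response at 5 % O2 of -0.46 ± 0.10. Thbs1, the matrix protein thrombospondin 1, fell from a median of 63446 (range 59028 to 66426) to a median of 52037 (range 49203 to 54704) and was not called at 5 % O2. Actb, cytoplasmic actin, fell with log2 fold changes of -0.23 and -0.36. Of 17 ID and TGF-β feedback genes, 6 fell (10.8 % of all genes) and 2 rose, which is near the 11.5 % of all genes, and 8 fell without 1 % CTRL replicate 1. The numbers at 5 % O2 were 3 lower and 4 higher (12 % and 9.44 % of all genes). Of 16 angiogenic ligands, 4 rose and 4 fell (11.5 % and 10.8 % of all genes), beside 6 and 1 at 5 % O2 (9.44 % and 12 % of all genes). Vegfa and Apln were among those that fell, and Vegfc, the ligand of lymphatic growth, rose from a median of 113 (range 85.6 to 138) to a median of 214 (range 172 to 246).

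Genes of the respiratory chain gave almost no calls with all libraries, and their difference from the response at 5 % O2 depended on 1 % CTRL replicate 1. Of 79 nuclear-encoded subunits of oxidative phosphorylation, 0 were called by limma (22.3 % of all genes), 1 had an unadjusted p under 0.05, and edgeR, DESeq2 and voom on whole reads called 0 each. The median was -0.03, beside 0.11 at 5 % O2, where 2 rose and 2 fell (9.44 % and 12 % of all genes). Without 1 % CTRL replicate 1, 4 were called lower and 0 higher, where 25.8 % of all genes were called in either direction. The interaction was called for 0 of the 79 by limma with all libraries (13 at an unadjusted p under 0.05, 0 by edgeR and voom and 4 by DESeq2), with a median of -0.16. Without 1 % CTRL replicate 1 it was called lower for 21 and higher for 1, where 7.12 % and 8.8 % of all genes were, with a median of -0.23. Array weights made it 12 lower and 1 higher, whereas removal of the length trend left 1 lower. Leaving out any other library at 1 % O2 gave at most 3. These transcripts are short, with a median exon length of 1718 bases beside 4180.0 over all genes tested, and lie where that library departed from its group, whose part in these counts was not tested beyond these fits. Of 13 mitochondrially encoded subunits, 1 rose and 1 fell, near the 11.5 % and 10.8 % of all genes. The gene mt-Cytb of complex III fell from a median of 48847 (range 46265 to 53938) to a median of 39045 (range 36516 to 44570.4). The gene mt-Nd2 of complex I rose from a median of 22888 (range 22336 to 25194) to a median of 27042 (range 23975 to 31296) with overlap. The lowest log2 fold changes of the list, -3.56 in complex I and -1.84 in complex IV, were not called. At 5 % O2, mt-Nd2 fell by 0.24 on the log2 scale.

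The mitochondrial Ca2+ uniporter complex, through which Ca2+ enters the matrix, changed in small steps. Mcu, its pore, was not called, at a median of 2269.6 (range 2233 to 2360.0) in 1 % CTRL and a median of 2334 (range 2254 to 2433) in 1 % STIM (0.03 ± 0.03, adjusted p = 0.58). Of 13 genes of the complex and its partners, 4 rose (11.5 % of all genes) and 1 fell, which is near the 10.8 % of all genes. The number that rose was 3 without 1 % CTRL replicate 1. The gatekeeper gene Micu3 rose by 0.24 ± 0.06, its relative Micu2 by 0.12 ± 0.04 (not called without 1 % CTRL replicate 2 or 1 % STIM replicate 2), and Mcur1, a uniporter regulator, from a median of 534 (range 475 to 554) to a median of 605 (range 575 to 633). Vdac1, the channel of the outer membrane, fell from a median of 8849 (range 8796 to 8945) to a median of 8278 (range 7757 to 8364). For the 4 genes Micu2, Micu3, Mcur1 and Vdac1, the difference from the response at 5 % O2 was not called with all libraries. Of 12 genes of calcineurin and NFAT, the Ca2+-dependent phosphatase and its transcription factors, 5 rose and 0 fell (11.5 % and 10.8 % of all genes), with 5 of the 12 at an unadjusted p under 0.05. The number that rose was 6 without 1 % CTRL replicate 1. Rcan1, the feedback inhibitor that NFAT induces, was not called, at a median of 629.6 (range 549.8 to 667) and a median of 665 (range 615 to 732), and Nfatc1 rose by 0.17 ± 0.04, a difference from the response at 5 % O2 of -0.30.

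Set against 5 % O2, where 3115 genes were called (21.4 %), 1275 were called in the same direction at both O2 levels. These were 39.3 % of the calls at 1 % O2 and 40.9 % of those at 5 % O2, and the responses share no library. In opposite directions were 133 genes, of which 72 rose at 1 % and fell at 5 % O2 and 61 fell at 1 % and rose at 5 % O2. The interaction called 1645 genes (11.3 %), 855 higher and 790 lower at 1 % O2. Of the 926 genes that rose at 1 % O2 and were not called at 5 % O2, 305 had a called difference, as had 341 of the 911 that fell at 1 % O2 only, so that most calls at a single O2 level came without a called difference. Across 14541 genes the log2 fold changes of both responses had a Pearson correlation of 0.36, and of 0.52 across the 10795 genes with a mean of at least 100. Genes are not independent replicates, and this is a description.

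The genes with the most positive differences included Otud1, a deubiquitinase, which stayed at a median of 303 (range 292 to 352) and a median of 306 (range 289.5 to 326) at 1 % O2 and fell from a median of 526 (range 481 to 631) to a median of 271 (range 219 to 286) at 5 % O2, a difference of 1.02 ± 0.10 (adjusted p = 2.5e-09). The ribosomal pseudogene Rpl36a-ps3 had a difference of 2.30 ± 0.69 (adjusted p = 0.036), but its libraries were widely spread, with a median of 126 (range 33 to 314) in 1 % CTRL, and as a pseudogene it can share reads with its parent gene, so its level is uncertain. The differences of Angptl4 and Pim1, 0.97 and 0.68, rested on libraries that did not overlap at either O2 level. At 1 % O2 the rule for the genes that rose most required this. The negative differences selected by size were those of Cxcl1, Cxcl5, Ccl2, Ccl7, Lif and Bcl3.

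**Figure D3:**
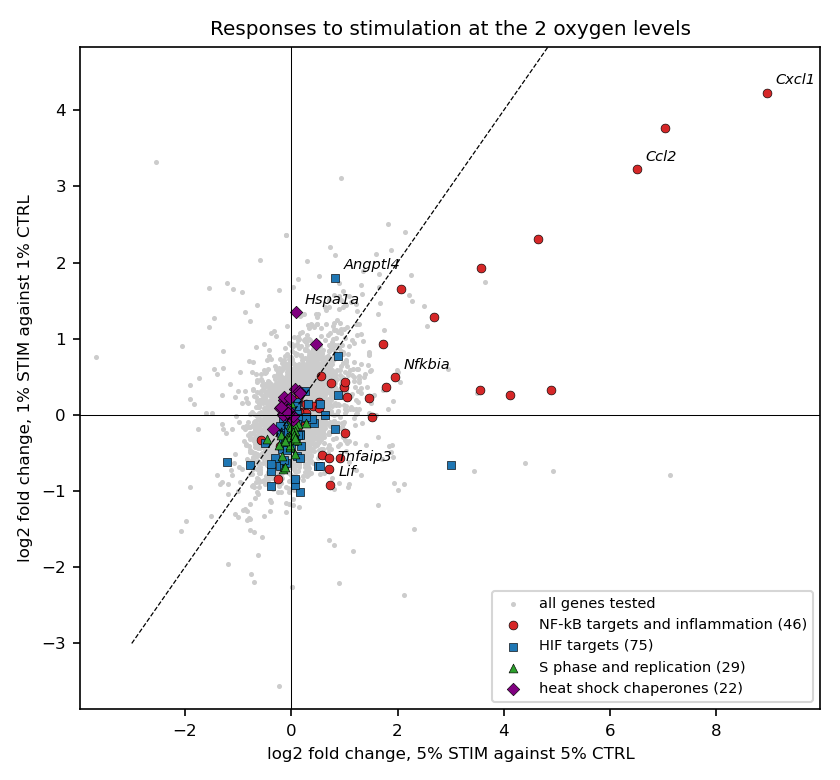
log2 fold change of 1 % STIM against 1 % CTRL (vertical axis) against that of 5 % STIM against 5 % CTRL (horizontal axis) for 14541 genes, with 4 lists in colour and the dashed line of equal responses. The chemokines lie far to the right of that line, Cxcl1 at 4.23 and 8.95, and the HIF targets gather below 0 on the vertical axis, with a median of -0.24.

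**Figure D4:**
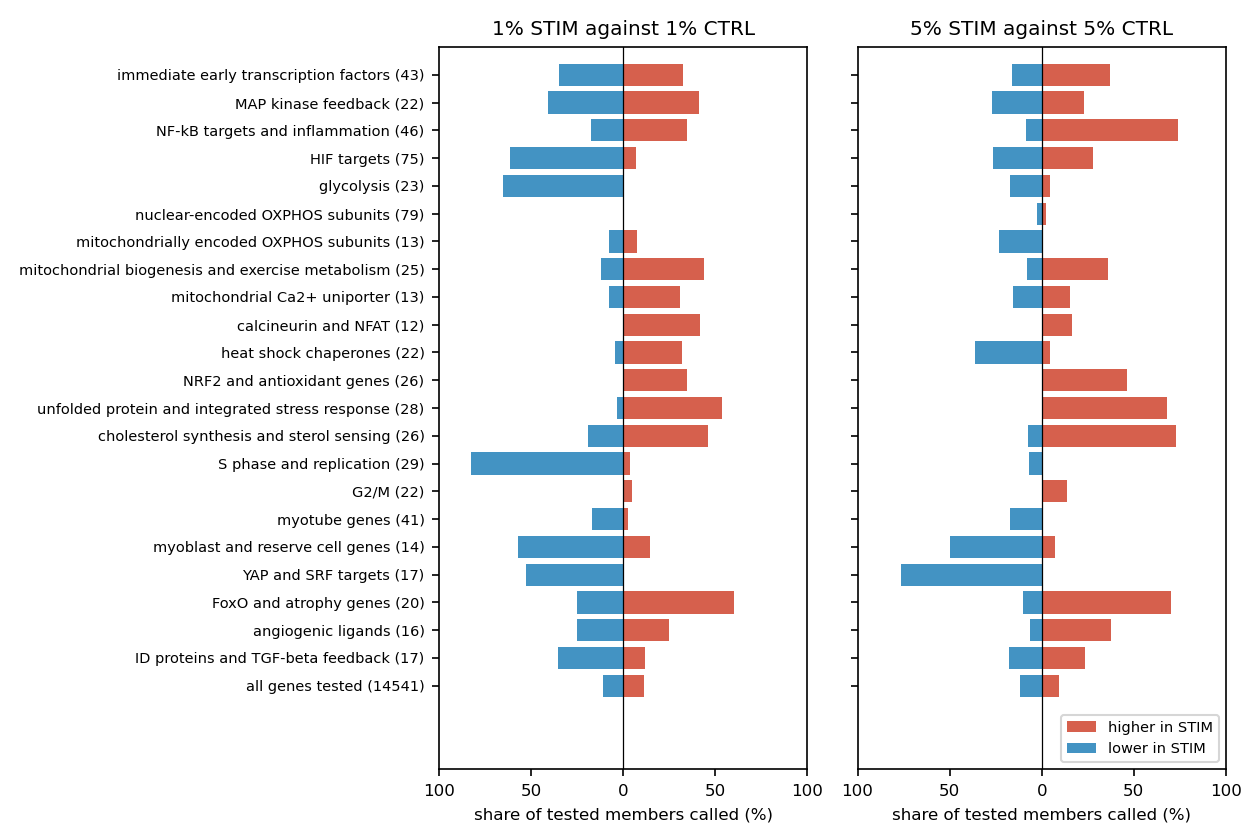
Share of the tested members of each list called higher (right of 0) or lower (left of 0) in stimulated cultures, at 1 % O2 in the left panel and at 5 % O2 in the right panel, with the number tested in brackets and all genes in the last row. Among HIF targets 46 of 75 fell at 1 % O2, and among NF-κB targets 16 of 46 rose at 1 % O2 and 34 at 5 % O2.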

How the data were processed

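Polyadenylated RNA of C2C12 myotubes was sequenced from stranded libraries with single-end reads (4 groups of 6 biological replicates, 24 libraries). According to the submitters' processing notes and the methods, the authors checked reads with FastQC 0.11.7, aligned them with STAR 2.5.4b to GRCm38 and counted reads per gene with RSEM 1.3.0 at default parameters. The deposited signal is that count divided by the DESeq2 size factor of the library (normalized count). A further deposited table of the authors' own fold changes, p-values and calls was not used. All values were whole multiples of 1 read (tolerance 0.01), so whole reads were recovered, 26541858 to 28173745 per library.

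Of 55487 genes, 14541 that reached a normalized count of 10 in 6 or more of the 24 libraries were tested as log2(normalized count + 1), a scale that understates changes of low genes, with limma 3.58.1 in R 4.3.3 (1 fit of 4 groups, trend and robust empirical Bayes), Benjamini-Hochberg adjusted over all genes tested, with a threshold of 0.05. Errors of log2 fold changes are SE. The interaction was the response at 1 % minus that at 5 % O2. P-values are from these replicates of 1 cell line and set differences of group means against the spread between these cultures. Scripts were tested on simulated data. Exon lengths, symbols and strands came from GENCODE M21 (55227 of 55487 IDs matched, 99.5 %), and promoters from RefSeq on GRCm38.p6.

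Named genes were the 12 that rose and the 12 that fell most (with 100 or more as the mean of the higher group and without overlap), the 6 most positive and the 6 most negative interactions, up to 5 called members of each of 22 lists with up to 2 against the majority, and core genes of the lists. Uncharacterised genes that the rule selected were left out of the text, and some other genes are not reported here. Members and lists were chosen with earlier results of these data known. Alternatives were a pseudocount of 10, no filter, other scaling, array weights, edgeR 4.0.16, DESeq2 1.42.0 and voom on whole reads, removal of the length trend, the compared groups alone, a replicate block, each library left out in turn, and an adjusted p under 0.01. Leaving out 1 % CTRL replicate 1 together with 1 % STIM replicate 3 was chosen after seeing the data.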

Additional observations from a re-analysis of the deposited data

Results flagged for a closer look

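In 202 groups of 6 libraries (101 named genes in 1 % CTRL and in 1 % STIM), 19 had a library that stood apart from the other 5 by Dixon's test, where chance gives about 1 in 20. Of these, 14 were in 1 % CTRL replicate 1. That library held the lowest normalized count of its group for Sesn2 (563), Ddit4 (844), Jun (1317), Depp1 (323), Myog (17829), Myod1 (1491) and Actb (50534). It held the highest for Trp53inp1 (976), Foxo1 (1865), Hspa4l (6459), Cdc6 (788), Uhrf1 (2579.9), Mcm5 (1967) and Rnf145 (3232). Elsewhere, 1 % CTRL replicate 3 was highest for Trim63 (1220.1), 1 % STIM replicate 2 was highest for Dusp1 (698), 1 % STIM replicate 3 was highest for Sesn1 (1629), 1 % STIM replicate 6 was lowest for Gclc (1425) and 1 % STIM replicate 3 was lowest for Vdac1 (7757). The library's departure with gene length is given above, and its part in these values was not tested.

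The response to stimulation differed between 1 % and 5 % O2 for 1645 genes by the limma interaction (adjusted p under 0.05), and 59 of the named genes were among them. Of these 59 differences, 49 kept their call under every alternative run. The call was lost under some alternatives, which include the stricter threshold, for 10 of the 59, and direction was not reversed. The 59 are therefore not equally firm. The values below are the log2 fold change at 1 % O2 minus that at 5 % O2, with all libraries. Negative differences were found for Cxcl1 (-4.72), Ccl2 (-3.28), Cxcl5 (-3.28), Ccl7 (-2.32), Lif (-1.65), Bcl3 (-1.55), Nfkbia (-1.46), Tnfaip3 (-1.43), Junb (-1.08), Ddit4 (-1.01), Egr3 (-0.82), Grhl3 (-0.81), Triobp (-0.77), Hmox1 (-0.63), Trib3 (-0.63), Hk2 (-0.61), Socs3 (-0.60), Vegfa (-0.59), Ccne2 (-0.57), Cdc6 (-0.56), Slc2a1 (-0.52), Hk1 (-0.51), Egln3 (-0.46), Amotl2 (-0.46), Eno2 (-0.43), Foxo1 (-0.42), Bnip3 (-0.40), Apln (-0.40), Insig1 (-0.38), Id2 (-0.37), Adm (-0.37), Pfkl (-0.32), Thbs1 (-0.31), Nfatc1 (-0.30), Hbegf (-0.29) and Rnf145 (-0.24). Positive differences were found for Rpl36a-ps3 (2.30), Hspa1a (1.26), Otud1 (1.02), Angptl4 (0.97), Btg2 (0.71), Pim1 (0.68), Pdk4 (0.66), Depp1 (0.59), Nr4a2 (0.51), Jun (0.50), Slc40a1 (0.48), Cpt1a (0.48), Dusp1 (0.47), mt-Nd2 (0.46), Hsph1 (0.38), Sesn1 (0.36), Trp53inp1 (0.36), Ddit3 (0.35), Gclc (0.31), Hspa4l (0.26), Gclm (0.25), Nrg1 (0.19) and Myh3 (0.16).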

How the results depend on the processing

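The count of genes changed at 1 % O2 stayed within 1.5 times of 3245 under every alternative run, from 2165 at an adjusted p under 0.01 and 2770 without the filter to 3954 with array weights, and from 2893 to 3748 with 1 library left out. edgeR, DESeq2 and voom called 3347, 3323 and 3379 genes. The interaction ranged from 1364 to 2316 with 1 library left out. At an adjusted p under 0.01, it called 830 genes and the response at 5 % O2 1944, by construction of the threshold. Scaling to the same total moved the share of higher calls from 51.4 % to 62.4 % at 1 % O2 and from 44.0 % to 62.1 % at 5 % O2. Without both libraries of the steepest length slopes, 3240 genes were called at 1 % O2 and 1978 in the interaction. Array weights gave 1 % CTRL replicate 1 a weight of 0.287, beside 0.671 or more for the other libraries at 1 % O2.

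Replicate numbers did not pair the samples, since deviations of same-numbered libraries of 1 % CTRL and 1 % STIM correlated at -0.394 to 0.388 and only numbers 2 and 5 matched best with their own. The fit with replicate number as a block called 3320 genes at 1 % O2, 1710 in the interaction and 3190 at 5 % O2.

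Direction changed only for named genes that were not called at 1 % O2. Egr1 was at 0.0108 under scaling to the same total, 0.0111 under edgeR and 0.0109 under DESeq2, and at -0.062 to 0.058 with 1 library left out. Otud1 was at 0.0058 under scaling to the same total and at -0.033 to 0.022 with 1 library left out, and Bcl3 was at -0.126 to 0.035 with 1 library left out. Without both libraries of the steepest slopes, Fos was at 0.00052 and Myh3 at -0.0061. Cenpe was not called with the compared groups alone (adjusted p = 0.066 by limma). The cause was not tested for these changes.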
